A study of Mus musculus with 56 samples.

Results

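The genes described here are the enzymes that break down stored triglyceride in fat and the proteins that act directly on them, as transcripts of mouse visceral adipose tissue (VAT). They are 7 named genes, Pnpla2, Lipe, Mgll, Abhd5, G0s2, Pde3b and Aqp7, out of 25939 genes in the series, and all 7 were measured in every library. The mice were female C57BL/6J, 9 weeks old at collection, on normal chow in a 12 h light:12 h dark cycle. They had been fed only by day (daytime-restricted feeding, DRF) or only by night (nighttime-restricted feeding, NRF, the reference) for 7 days. Tissue was taken from 4 mice per regimen at each of ZT0, ZT4, ZT8, ZT12, ZT16, ZT20 and ZT24, where zeitgeber time (ZT) counts hours from lights on, which gave 14 groups and 56 polyA RNA libraries of 1 mouse each. The comparison of DRF with NRF asks whether the daily timing of these transcripts followed the feeding phase or the light cycle. Feeding is taken as the light phase (ZT0 to ZT12) under DRF and the dark phase (ZT12 to ZT24) under NRF, and the exact hours of food access were not used here.

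Lipolysis runs in steps in the adipocyte. Pnpla2 (adipose triglyceride lipase) removes the first fatty acid from triglyceride, Lipe (hormone-sensitive lipase) cleaves the diglyceride, and Mgll (monoglyceride lipase) releases glycerol and the last fatty acid. Abhd5 (CGI-58) is the co-activator of Pnpla2 and G0s2 is a peptide inhibitor of it. Pde3b degrades cAMP and carries the action of insulin against lipolysis, and Aqp7 is the channel through which glycerol leaves the cell. In the fed state insulin restrains the pathway, and in fasting catecholamines and glucocorticoids promote it.

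Libraries held 30991988 to 41023908 recovered reads on genes, and values are given as CPM (recovered reads of the gene, scaled to the size of the library) unless a log2 scale is named. The summed level of 8 adipocyte markers (Adipoq, Lep, Retn, Cfd, Plin1, Cidec, Fabp4 and Slc2a4) was 11991 to 43973 CPM, and none of them was at 0. DRF replicate 1 at ZT8 and DRF replicate 4 at ZT0 stood apart, with median correlations to the other libraries of 0.924 and 0.911. Their adipocyte sums were 11991 and 17038 CPM against 20743 to 43973 CPM in the others. Their sums over 6 measured markers of reproductive tract epithelium were 518 and 5034 CPM against 8.97 to 91.5 CPM. Over all libraries the sums ranged from 206 to 671 CPM for mesothelium, 246 to 577 CPM for macrophages, 4.49 to 26.7 CPM for lymphocytes, 184 to 1048 CPM for smooth muscle, 5.48 to 483 CPM for skeletal muscle, 14.2 to 1569 CPM for liver, 168 to 827 CPM for red cells and 6.43 to 98.6 CPM for brown adipocytes. In such bulk tissue, fewer cells of a type and less RNA per cell cannot be told apart. Main results that rest on these libraries are given with and without them. Shares of all genes are from runs with all libraries, so counts of members without these libraries have no such share beside them.

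Compared per kilobase of exon, Pnpla2 was the most abundant of the genes, with a median of 877 CPM per kb (range 343 to 1192), and it lay above G0s2 in 55 of 56 libraries. G0s2 followed at 311 CPM per kb, Mgll at 257 and Lipe at 199. G0s2 exceeded Mgll in only 39 libraries, whereas Mgll exceeded Lipe in 46. A gap separated these from Aqp7 at 38.1, Pde3b at 35.7 and Abhd5 at 33.9 CPM per kb, since Lipe exceeded Aqp7 in all 56 libraries. The last 3 changed places with each other, with Aqp7 above Pde3b in 35 libraries and Pde3b above Abhd5 in 33. Within groups of 4 mice, the median SD on the log2 scale was lowest for Mgll (0.13) and highest for G0s2 (0.34), beside 0.14 for the genes of the series with a mean CPM of at least 5. For every member the most variable group was DRF at ZT8, which holds one of the libraries that stood apart. Without that library its SD fell from 715 to 138 CPM for Pnpla2, from 59.6 to 16.7 CPM for Pde3b and from 25.9 to 6.98 CPM for Aqp7.

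Most of these transcripts had a 24-h rhythm. Lipe, Pde3b and Aqp7 were above their daily mean late in the fast and below it 8 h into feeding under either regimen, while G0s2 had its highest group means during or at the end of feeding. Under NRF, 6 of the 7 members passed the rhythm test (26.9% of all genes did), with Mgll just outside at an adjusted p of 0.0503. The Abhd5 call was lost without replicate 1 (0.0654), 2 (0.384) or 4 (0.14), without the ZT24 libraries (0.0595) and on log2(CPM + 1) (0.066). Under DRF, 4 of 7 passed (12.7% of all genes): Lipe, G0s2, Pde3b and Aqp7. With 1 replicate number left out throughout, the DRF call of Pde3b held each time. The calls of Lipe (highest adjusted p = 0.0769) and Aqp7 (0.0591) were lost without replicate 2 or 3, and that of G0s2 (0.041 with all) was lost each time (0.0885 to 0.434) and without the ZT24 libraries (0.0843). By limma's cosine test 5 of 7 passed under NRF (33.7% of all genes) and 5 of 7 under DRF (26.7% of all genes), Pnpla2, Lipe, G0s2, Pde3b and Aqp7 in each. Without the libraries that stood apart, which widen the spread estimated for all groups, Mgll and Abhd5 also passed under NRF (adjusted p = 0.00208 and 0.00937) and Mgll under DRF (adjusted p = 0.0213). By the clock, the rhythm differed between regimens in 6 of 7 members in limma (36.0% of all genes), with Abhd5 the exception at an adjusted p of 0.593. The Mgll call (adjusted p = 0.0277) was lost on the deposited values (0.247), without the ZT24 libraries (0.168) and without replicate 1, 2 or 3 (0.0528 to 0.2). When the DRF profile was turned by 12 h to align both regimens to feeding, 1 of 7 still differed, G0s2 (14.9% of all genes). The other 5 members that differed by the clock did not pass after alignment (27.4% of all genes). Without the libraries that stood apart, 3 of 7 differed after this alignment, since Mgll (adjusted p = 0.0285) and Aqp7 (adjusted p = 0.0253) joined G0s2. No share of all genes is given for that run.

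**Figure D1:**
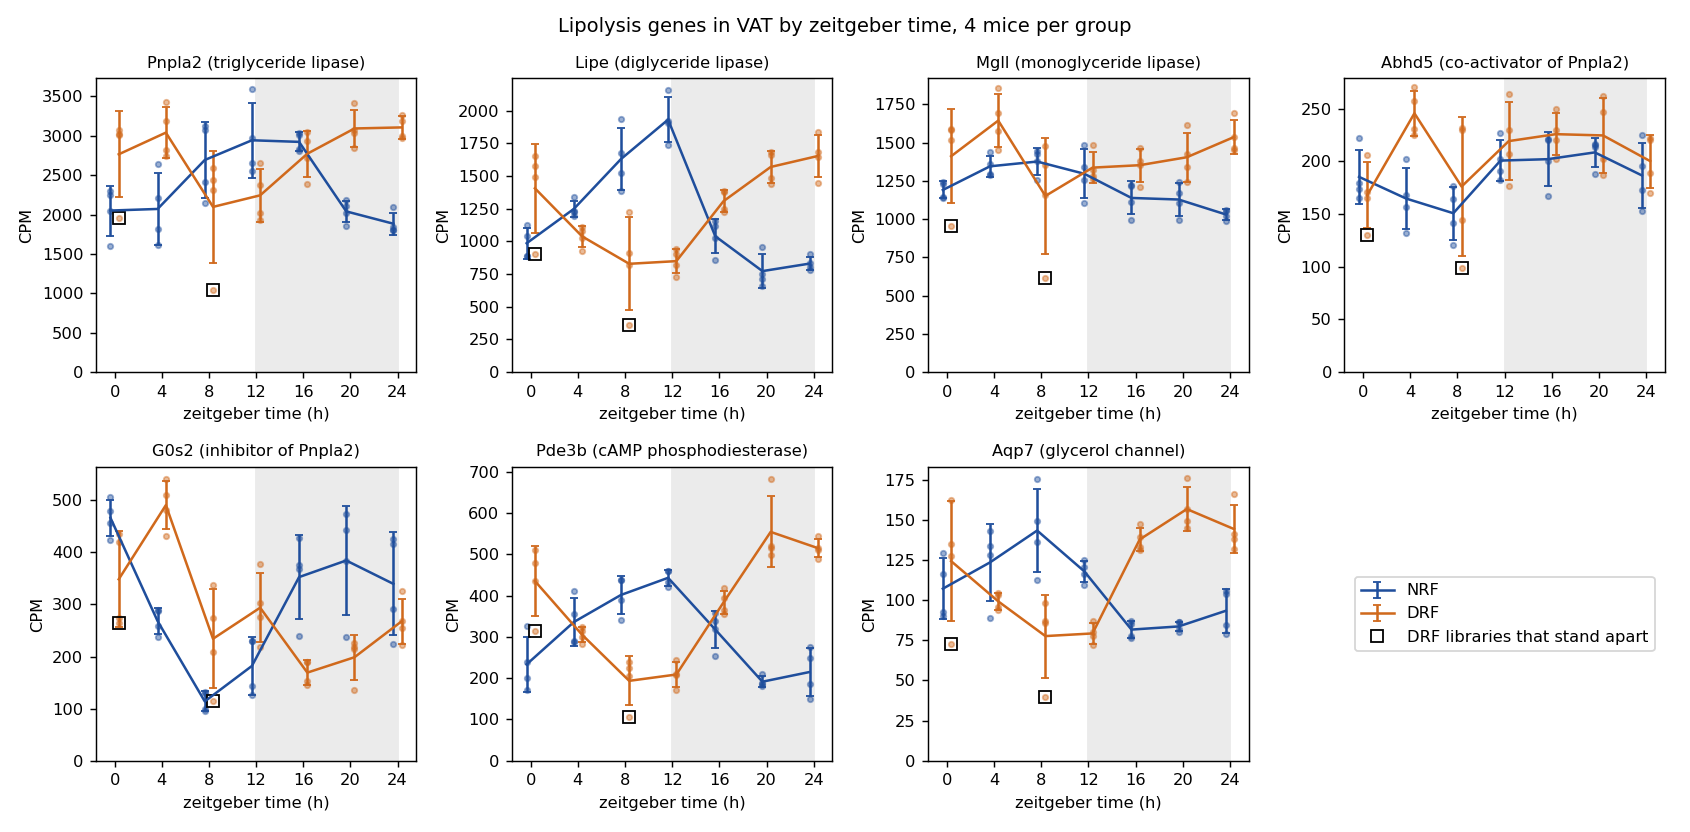
CPM of each lipolysis gene (vertical axes, each from 0) by zeitgeber time in hours (horizontal axes), with 1 point per mouse, lines through the group means and bars of 1 SD (n = 4); blue is NRF, orange DRF, grey the dark phase, and black squares mark the DRF libraries that stand apart. The NRF and DRF curves of Lipe, Pde3b and Aqp7 cross, so that Lipe averaged 1930.4 CPM under NRF and 848 CPM under DRF at ZT12, while those of Abhd5 are farthest apart at ZT4 (246 CPM under DRF and 165 CPM under NRF).

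Pnpla2 (ENSMUSG00000025509, GRCm38 chr7:141455198-141460743, plus strand), the lipase that starts the pathway, had its highest group means at ZT12 and ZT16 under NRF (2943 and 2923 CPM) and at ZT24 and ZT20 under DRF (3106 and 3093 CPM), with neither pair apart by more than its spread. The DRF mean at ZT4, 4 h into feeding, was as high within its spread (3040 ± 322 CPM, SD, n = 4). At ZT0, the same clock hour as ZT24, the DRF mean was 2765 CPM, or 3036 CPM without the library that stood apart. Under NRF the 4 mice at ZT12 had 3599.8, 2549, 2969 and 2653 CPM, and those at ZT24 had 1836, 2089.9, 1799.8 and 1808 CPM. These groups did not overlap, and their means differed 1.56-fold. Here and for the other members, groups picked as the highest and lowest of a regimen tend not to overlap for that reason. No call rests on it. Under DRF the mice at ZT24 had 2977, 3268, 3183 and 2997 CPM, and those at ZT8 had 1037, 2318, 2594 and 2439 CPM. These groups did not overlap either, with the library that stood apart (1037 CPM) the lowest. The rhythm passed under NRF (adjusted p = 0.00147) but not in the same test under DRF (adjusted p = 0.535), whereas limma's cosine test called it in both (adjusted p = 0.00126 and 0.0167). The fitted peak moved from 12.5 ± 0.84 h (SE) under NRF to 21.8 ± 0.99 h under DRF, a shift of 9.39 ± 1.3 h. Without the libraries that stood apart the DRF peak was at 23.0 ± 0.86 h and the shift was 10.6 ± 1.04 h. Aligned to feeding, the rhythm did not differ detectably between regimens in limma (adjusted p = 0.410).

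Lipe (ENSMUSG00000003123, chr7:25379527-25398710, minus strand), the diglyceride lipase, had a wider daily range than Pnpla2 in both regimens. Under NRF the mice at ZT12 had 1739, 1919.8, 2156 and 1907 CPM and those at ZT20, 8 h into feeding, had 715, 662, 958 and 754 CPM. All ZT12 mice were above all ZT20 mice, a 2.5-fold difference of means. By the clock the DRF order differed. At ZT20, late in the fast, the values were 1442, 1687, 1664 and 1481 CPM, and at ZT12, at the end of feeding, they were 819.7, 903, 942 and 729 CPM, with no overlap. At ZT12 the regimens did not overlap, with a difference of DRF from NRF of -1.19 ± 0.19 (log2, SE) in limma (adjusted p = 1.61e-05), and at ZT20 DRF was higher by 1.03 ± 0.19 (adjusted p = 0.000149). The fitted peak lay 21.4 h after the start of feeding under NRF and 21.0 h under DRF. The rhythm after alignment to feeding did not differ detectably (adjusted p = 0.857).

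The reference sequence just upstream of the inner start site of Lipe is shown because its transcript fell with feeding under both regimens, together with the corresponding window of Aqp7, which fell with it, and of G0s2, which peaked with feeding. Each holds the 250 bases before a RefSeq start site, on the gene's strand, from the GRCm38.p6 table, where 6 of the 7 members were matched and Pde3b was not. Both strands were searched for CACGTG (E-box), TGTTTAC (FOXO site), AGGTCA (nuclear receptor core), TGACGTCA (cAMP response element), TTATGTAA (D-box) and the palindromic glucocorticoid response element, none of which overlapped another in these windows, and matches are in capitals.
Lipe, chr7:25390113-25390362, minus strand: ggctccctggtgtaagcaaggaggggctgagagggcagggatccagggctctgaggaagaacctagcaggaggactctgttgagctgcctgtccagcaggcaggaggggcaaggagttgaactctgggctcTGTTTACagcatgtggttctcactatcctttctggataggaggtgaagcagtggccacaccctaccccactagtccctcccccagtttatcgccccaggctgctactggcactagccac
Aqp7, chr4:41048137-41048386, minus strand: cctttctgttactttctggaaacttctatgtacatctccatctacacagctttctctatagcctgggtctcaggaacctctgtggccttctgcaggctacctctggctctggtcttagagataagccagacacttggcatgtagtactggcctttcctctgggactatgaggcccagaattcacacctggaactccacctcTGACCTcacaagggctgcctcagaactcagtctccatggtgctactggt
G0s2, chr1:193273189-193273438, minus strand: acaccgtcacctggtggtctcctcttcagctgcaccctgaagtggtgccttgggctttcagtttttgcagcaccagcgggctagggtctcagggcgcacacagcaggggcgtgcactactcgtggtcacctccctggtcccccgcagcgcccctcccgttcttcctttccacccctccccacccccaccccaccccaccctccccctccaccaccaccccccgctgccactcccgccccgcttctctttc

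All windows of the 6 matched members were searched, some of which had a further start site. The Lipe window shown held TGTTTAC starting 119 bases upstream of the start site, which 3.17% of 32851 such windows also held. The other Lipe window, at chr7:25395988-25396237, held CACGTG 155 bases upstream. The Aqp7 window shown held AGGTCA on the other strand at 49 bases upstream (14% of windows), and Abhd5 held it at 69 bases, also on the other strand. The other Aqp7 window, at chr4:41047963-41048212, overlaps the one shown and held AGGTCA on the other strand 101 bases upstream and, as the same match, 223 bases upstream. The Mgll window at chr6:88724162-88724411, on the plus strand, held CACGTG 44 bases upstream (6.02% of windows) and TGTTTAC on the other strand 241 bases upstream. No match to the searched letters was found in the windows of G0s2 and Pnpla2.

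Mgll (ENSMUSG00000033174, chr6:88724412-88828360, plus strand), which completes the hydrolysis and releases glycerol, had a narrow daily range. Under NRF the mice at ZT8 had 1254, 1424, 1444 and 1382 CPM and those at ZT24 had 1055, 1018, 1060.3 and 989 CPM, groups that did not overlap but differed only 1.33-fold in mean. Under DRF the mice at ZT4 had 1573, 1453, 1691 and 1857 CPM and those at ZT8 had 617, 1158, 1475 and 1355 CPM. These overlapped, with the library that stood apart (617 CPM) the lowest. Its rhythm did not pass under DRF (adjusted p = 1), and the fitted peak-to-trough range was 1.29-fold under NRF and 1.21-fold under DRF. At ZT24 all DRF mice (1451 to 1694 CPM) were above all NRF mice, a difference of 0.57 ± 0.16 (log2, SE) with an adjusted p of 0.0144 in limma.

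Abhd5 (ENSMUSG00000032540, chr9:122351608-122381524, plus strand), the co-activator of Pnpla2, was the member whose rhythm by the clock did not differ detectably between regimens. Under NRF its values were lowest at ZT8, with 165, 120.1, 141 and 177 CPM, and highest at ZT20, with 217, 215, 213 and 188 CPM. Under DRF the ZT8 mice had 98.7, 144, 231 and 229.8 CPM, of which the lowest is the library that stood apart, while the ZT20 mice had 187, 262, 247 and 202 CPM. The rhythm test was borderline under NRF (adjusted p = 0.0439) and was lost in limma (adjusted p = 0.0592), and under DRF it did not pass (adjusted p = 1). The fitted peak was at 17.9 ± 1.19 h under NRF, and under DRF, with no rhythm called, at 16.4 ± 2.9 h, or 12.4 ± 5.12 h without the libraries that stood apart. The only time point at which Abhd5 differed between regimens was ZT4, where the DRF mice (225, 231, 257 and 270.0 CPM) were all above the NRF mice (168, 157, 202 and 132 CPM), by 0.59 ± 0.17 on the log2 scale (adjusted p = 0.0123).

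G0s2 (ENSMUSG00000009633, chr1:193272161-193273217, minus strand), the inhibitor of Pnpla2, had the widest range of the members under NRF, where it was lowest while Lipe was high. Under NRF the mice at ZT8, late in the fast, had 99.3, 129.6, 95.6 and 131 CPM and those at ZT0, at the end of feeding, had 456, 424, 479.5 and 505 CPM. These were the lowest and the highest groups, 4.09-fold apart in mean. Under DRF the mice at ZT16, 4 h into the fast, had 191, 145, 153 and 189 CPM and those at ZT4, 4 h into feeding, had 541, 432, 509 and 480.3 CPM, 2.90-fold apart. In both regimens the groups with the highest and lowest means did not overlap, which picking them by their means favours. The peak moved from 21.0 ± 0.54 h to 4.26 ± 0.81 h, which is 9.03 h after the start of feeding under NRF and 4.26 h under DRF. The shift was 7.22 ± 0.98 h. Without the libraries that stood apart the DRF peak was at 4.885 ± 0.638 h and the shift was 7.85 ± 0.80 h. G0s2 still differed between regimens after alignment to feeding in limma (adjusted p = 0.000292, and 0.000144 without the libraries that stood apart). At ZT24, the same clock hour as ZT0, the NRF mice had 224, 417, 426 and 291 CPM, 3 of the 4 below the lowest of 424 CPM at ZT0, a difference that was not tested.

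Pde3b (ENSMUSG00000030671, chr7:114415281-114539251, plus strand), the phosphodiesterase on the insulin side of the pathway, had the widest fitted range of the members under DRF. Under DRF the mice at ZT20 had 498, 682, 516 and 521 CPM and those at ZT8 had 107, 224, 238 and 205 CPM, a 2.86-fold difference of means, with no overlap. Without the library that stood apart (107 CPM) the ZT8 mean was 223 ± 16.7 CPM (SD, n = 3). Under NRF the same time points were in the reverse order, with 211, 182, 185 and 188 CPM at ZT20 and 390.5, 340.5, 437 and 438 CPM at ZT8. At ZT20 DRF exceeded NRF by 1.52 ± 0.18 (log2, SE) in limma (adjusted p = 8.86e-08). The rhythm passed under NRF (adjusted p = 0.0019) and DRF (adjusted p = 0.00227), with peaks at 9.78 ± 0.46 h and 21.1 ± 0.34 h, a shift of 11.3 ± 0.57 h. Its fitted peak-to-trough range was 2.28-fold under NRF and 3.03-fold under DRF, and the amplitude difference of 0.20 ± 0.10 on the log2 scale did not pass (adjusted p = 0.414).

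Aqp7 (ENSMUSG00000028427, chr4:41033074-41048139, minus strand), the glycerol channel, was high in the same phases as Lipe and Pde3b. The NRF mice at ZT8 had 136, 175, 113 and 149 CPM and those at ZT16 had 87.1, 77.9, 85.1 and 76.6 CPM. Under DRF the mice at ZT20 had 145, 176, 157 and 149 CPM, while those at ZT8 had 39.8, 85.7, 98.3 and 86.8 CPM. In neither regimen did these groups overlap. Without the library that stood apart (39.8 CPM) the DRF mean at ZT8 was 90.2 ± 6.98 CPM (SD, n = 3), and the lowest DRF group was then ZT12 at 79.3 ± 6.3 CPM (SD, n = 4). The peaks were at 7.05 ± 0.63 h and 20.4 ± 0.47 h, that is 19.0 h after the start of feeding under NRF and 20.4 h under DRF. The rhythm after alignment to feeding passed the threshold in limma only without the libraries that stood apart (adjusted p = 0.180 with them and 0.0253 without).

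**Figure D2:**
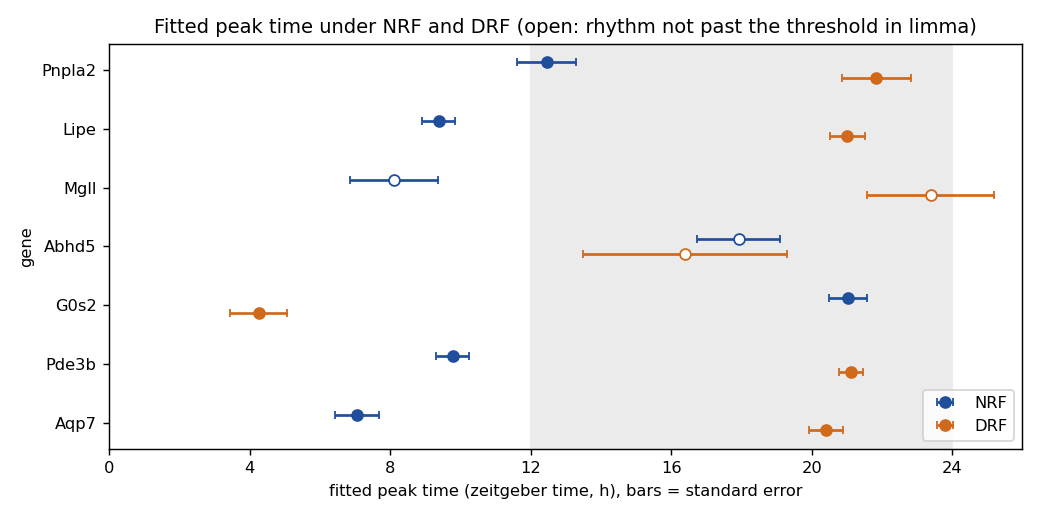
Fitted peak time in hours of zeitgeber time (horizontal axis, grey for the dark phase) of each lipolysis gene (vertical axis) under NRF (blue) and DRF (orange), with bars of 1 SE; open symbols mark a rhythm that did not pass in limma. Under DRF the peaks of Pnpla2, Lipe, Pde3b and Aqp7 lie between 20.4 and 21.8 h, against 7.05 to 12.5 h under NRF.

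The shift of the peak time was read only for genes with a rhythm in both regimens in limma, because the Wald test of the shift, which called 6 of 7 members (42.5% of all genes), also calls flat genes. Among 4442 such genes, 73.4% had a shift of 8 h or more. Of the 5 members among them, 4 had one: Pnpla2 (9.39 h), Lipe (11.6 h), Pde3b (11.3 h) and Aqp7 (10.6 h), with G0s2 at 7.22 h. This share of the members is near that of the series. Without the libraries that stood apart, Mgll also had a rhythm in both regimens in limma, with a shift of 6.25 ± 1.27 h. The shift was then 10.6 h for Pnpla2 and 7.85 ± 0.80 h for G0s2. No member differed in amplitude by the Wald test (1.44% of all genes did).

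**Figure D3:**
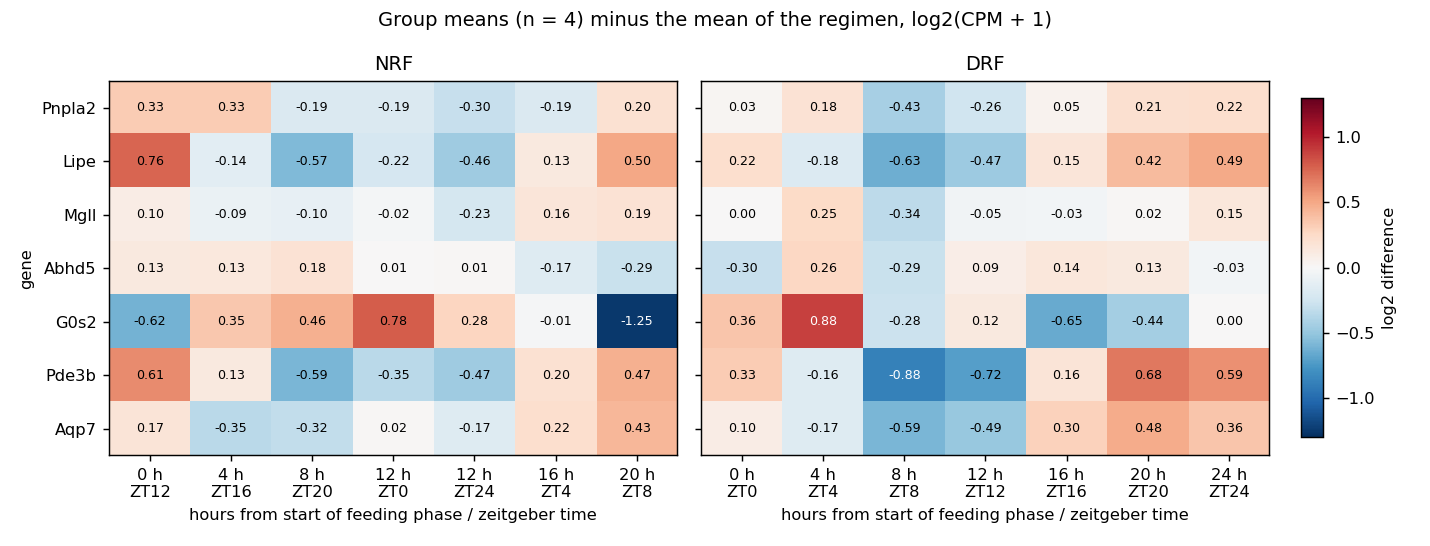
Group mean of log2(CPM + 1) minus the mean of the same gene over the 7 groups of its regimen (colour and printed value, n = 4), with genes in rows and groups in columns ordered by hours from the start of the feeding phase, NRF left and DRF right. Lipe, Pde3b and Aqp7 are below their mean at 8 h in both panels, and G0s2 is lowest at 20 h under NRF (-1.25) and at 16 h under DRF (-0.65).

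The feeding difference was read as mid-feeding minus mid-fasting, each 8 h into its phase, which is ZT20 minus ZT8 under NRF and ZT8 minus ZT20 under DRF. Within a regimen it is also a difference between night and day, which cannot be told apart from feeding there. Lipe, Pde3b and Aqp7 fell in both regimens, 3 of 7 members (2.63% of all genes fell in both), and no member rose in both (2.48% of all genes). Under NRF 5 of 7 members passed in limma (21.8% of all genes, 11.8% higher and 10% lower), with Lipe at -1.08 ± 0.19 (log2, SE), Pde3b at -1.06 ± 0.18 and Aqp7 at -0.75 ± 0.18 below 0, and G0s2 at 1.71 ± 0.24 and Abhd5 at 0.48 ± 0.17 above. Under DRF 4 of 7 passed (11.5% of all genes, 5.72% higher and 5.8% lower), all lower, with Lipe at -1.05 ± 0.19, Pde3b at -1.57 ± 0.18, Aqp7 at -1.08 ± 0.18 and Pnpla2 at -0.64 ± 0.21. Without the libraries that stood apart the DRF differences were -0.69 for Lipe, -1.3 for Pde3b and -0.79 for Aqp7, which still passed, and -0.33 for Pnpla2, which did not (adjusted p = 0.255). With 1 replicate number left out in turn, the calls of Lipe and Pde3b held in both regimens, while that of Aqp7 under NRF was lost without replicate 2 (0.0538), that of Abhd5 under NRF without replicate 2 or 3 (0.353 and 0.124) and that of Pnpla2 under DRF every time (0.055 to 0.356). The adipocyte marker sum was 11991 to 30028 CPM at ZT8 and 27918 to 34232 CPM at ZT20 under DRF, and 31666 to 42902 CPM and 30664 to 35651 CPM under NRF. Its part in these differences was not tested.

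The feeding difference differed between regimens in 2 of 7 members, G0s2 and Abhd5 (7.48% of all genes, 3.36% higher and 4.12% lower under DRF). Written out, this contrast is ZT8 minus ZT20 summed over both regimens. A feeding difference that changes with regimen and a time-of-day difference shared by both regimens therefore cannot be told apart by it. G0s2 was 1.71 higher at mid-feeding under NRF and 0.16 ± 0.24 higher under DRF, where it did not pass, and the difference between regimens was -1.55 ± 0.35 (adjusted p = 0.0038 in limma). The DRF value without the libraries that stood apart was 0.46 ± 0.23 (adjusted p = 0.244) and the difference between regimens -1.25 ± 0.32 (adjusted p = 0.0121), and without replicate 2 the latter no longer passed (0.12). At mid-feeding the 4 DRF mice had 115, 209, 338 and 274 CPM and the 4 NRF mice had 474, 442, 384 and 237 CPM, so that these groups overlapped. Abhd5 was 0.48 higher at mid-feeding under NRF and had a difference of -0.42 ± 0.17 under DRF, which did not pass, and the difference between regimens was -0.90 ± 0.24 (adjusted p = 0.0175). By the clock, its estimate was thus higher at ZT20 than at ZT8 in both regimens. With those libraries left out the DRF value was -0.17 ± 0.16, and the difference between regimens was -0.65 ± 0.21 and no longer passed (adjusted p = 0.055). For Lipe the difference between regimens was 0.03 ± 0.28 and for Mgll -0.06 ± 0.23, neither past the threshold. With those libraries left out these were 0.39 ± 0.18 (adjusted p = 0.218) and 0.21 ± 0.16 (adjusted p = 0.493). For Pde3b, Aqp7 and Pnpla2 the difference was -0.51 ± 0.26, -0.32 ± 0.25 and -0.26 ± 0.30, none past the threshold. Without those libraries the values were -0.24 ± 0.22, -0.04 ± 0.17 and 0.05 ± 0.23, again none past it.

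**Figure D4:**
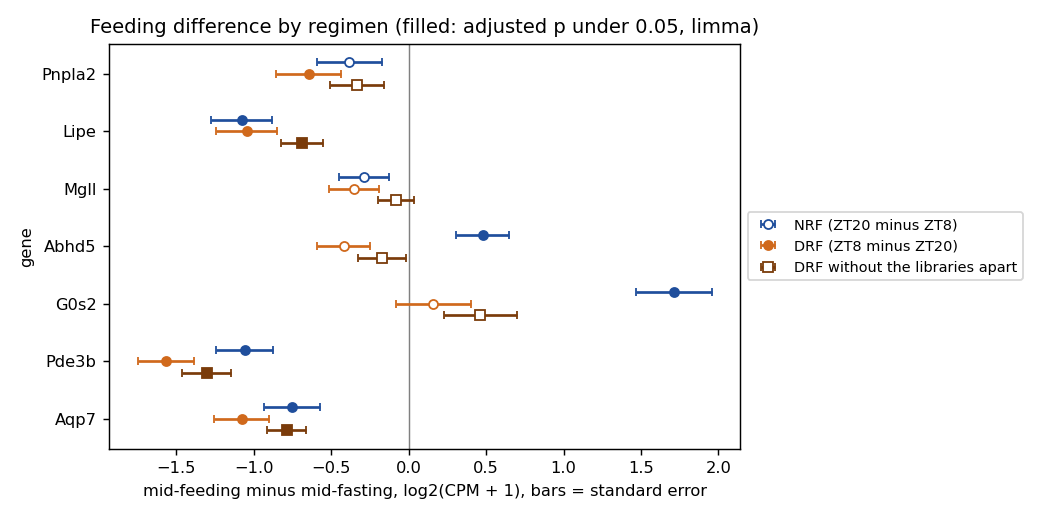
Mid-feeding minus mid-fasting on the log2(CPM + 1) scale (horizontal axis, bars of 1 SE from limma) for each lipolysis gene (vertical axis), under NRF (blue), DRF (orange) and DRF without the libraries that stood apart (brown squares), filled where the adjusted p is under 0.05. G0s2 lies at 1.71 under NRF and 0.16 under DRF, while Lipe lies at -1.08 and -1.05.

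At single time points, with all libraries on log2(CPM + 1), the most members passed at ZT20 and ZT24, late in and at the end of the dark phase. On the deposited values this order changed, with 4 at ZT8 and at ZT20 and 2 at ZT24. At ZT20 5 of 7 members passed (13.1% of all genes, 6.71% higher and 6.41% lower), with Pnpla2, Lipe, Pde3b and Aqp7 higher and G0s2 lower under DRF. At ZT24 5 passed (11.3% of all genes, 6.09% higher and 5.24% lower), with Pnpla2, Lipe, Mgll, Pde3b and Aqp7 all higher under DRF. At ZT8 and at ZT12 4 passed (16.5% of all genes at ZT8, 8.99% higher and 7.47% lower, and 16.1% at ZT12, 8.76% higher and 7.38% lower), the same 4 at both, with Lipe, Pde3b and Aqp7 lower and G0s2 higher under DRF. At ZT4 3 passed (19.5% of all genes, 10.4% higher and 9.04% lower), with Pnpla2, Abhd5 and G0s2 higher under DRF, and at ZT16 2 passed (9.97% of all genes, 5.0% higher and 4.97% lower), with Aqp7 higher and G0s2 lower. At ZT0 1 member, Pde3b, passed (10.5% of all genes, 5.41% higher and 5.06% lower), higher under DRF by 0.91 ± 0.18 (log2, SE). Without the libraries that stood apart, Mgll also passed at ZT4 and ZT20 (higher under DRF), and 5 members passed at ZT0, all higher under DRF: Pnpla2 by 0.58, Lipe by 0.68, Mgll by 0.39, Pde3b by 1.06 and Aqp7 by 0.41. The share of all genes that passed in that run is not given here. With 1 replicate number left out in turn, each call of Lipe and Pde3b at a single time point held, as did those of Aqp7 at ZT8 and ZT20, and each of the others was lost at least once. The Pnpla2 call at ZT20 (adjusted p = 0.0489) was lost every time (0.0634 to 0.282) and on the deposited values (0.0767).

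The mean over the day was not called different in any of the 7 members by limma (21.7% of all genes were, 11.4% higher and 10.3% lower). At an unadjusted p under 0.05 were 2 of 7 members, Mgll and Abhd5, and 8343 of the 25937 genes. Differences of DRF from NRF ran from -0.08 ± 0.08 (log2, SE) for Lipe to 0.16 ± 0.07 for Mgll, with a median of 0.09 over the members beside -0.00036 over all genes. This result rested on the libraries that stood apart. Without them Mgll was higher under DRF by 0.23 ± 0.04 (adjusted p = 2.97e-05), Abhd5 by 0.22 ± 0.06 (adjusted p = 0.00278) and Pnpla2 by 0.19 ± 0.06 (adjusted p = 0.0113). How many of all genes then passed is not given here. The adipocyte marker sum was 25220 to 43973 CPM (median 33062) under NRF and 11991 to 37886 CPM (median 28674) under DRF, and its part was not tested.

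The ratio of Pnpla2 to G0s2 per kb of exon sets the lipase against its inhibitor within each mouse. Under NRF it was 7.01, 6.96, 6.48 and 6.76 at ZT8, late in the fast, and 1.45, 1.4, 0.963 and 1.29 at ZT0, after feeding. Under DRF it was 4.44, 6.08, 4.51 and 4.15 at ZT16 and 1.5, 1.83, 1.80 and 2.06 at ZT4. These were the highest and lowest group means of each regimen. The mice of the high and low groups did not overlap, which picking the groups by their means favours. At ZT8 the library that stood apart had a ratio of 2.59, inside the range of 2.21 to 3.20 of the other DRF mice at that time. The ratio of Mgll to Lipe per kb also turned over the day, from 0.777 ± 0.0365 (SD, n = 4) at ZT12 to 1.72 ± 0.24 at ZT20 under NRF, and from 1.85 ± 0.29 at ZT12 to 1.04 ± 0.0549 at ZT20 under DRF. These ratios are descriptions and were not tested.

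**Figure D5:**
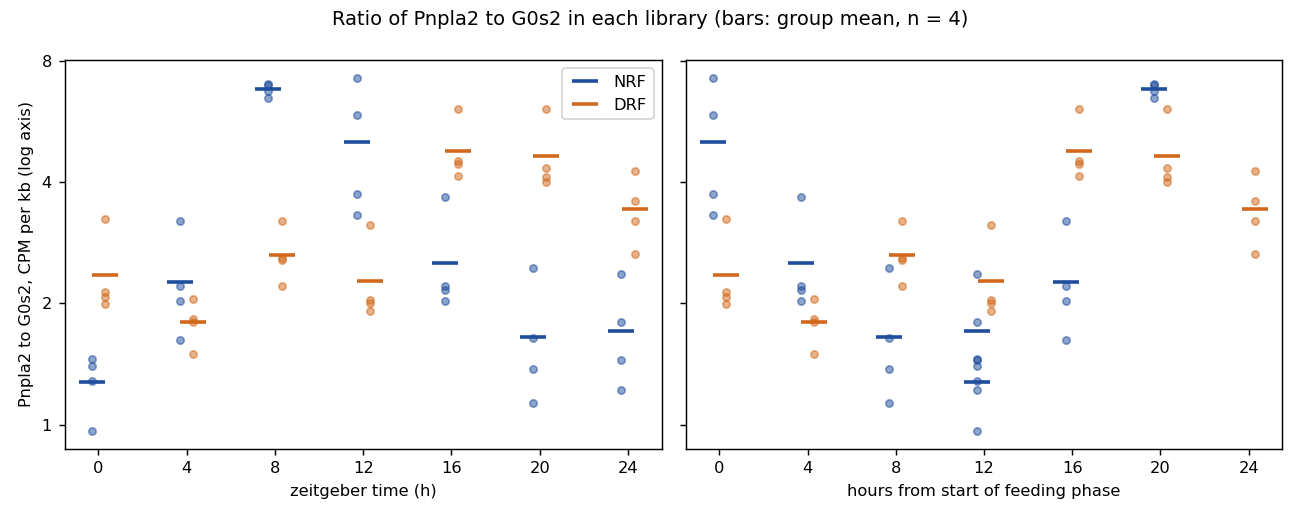
Ratio of Pnpla2 to G0s2 in CPM per kb of exon (vertical axis, log scale) in each library (points) with group means (bars, n = 4), by zeitgeber time in hours (left) and by hours from the start of the feeding phase (right), NRF blue and DRF orange. By hours from feeding the highest group means are 6.80 at 20 h and 5.05 at 0 h under NRF, and 4.80 at 16 h and 4.64 at 20 h under DRF.

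Over all 56 libraries, which share the same groups and the libraries that stood apart, the Pearson correlation of log2(CPM + 1) between members was highest for Lipe and Pde3b (0.891), Lipe and Aqp7 (0.815) and Pde3b and Aqp7 (0.804). It was -0.361 for Lipe and G0s2 and 0.106 for Lipe and Abhd5. Among 11149 other genes with a mean CPM of at least 5, the genes most like Lipe were Dgkd (0.918), N4bp2l1 (0.908) and Pde3b (0.891). Those most like Pde3b were Dgkd (0.937), 2810414N06Rik (0.937) and Nxnl1 (0.931), and Dgkd encodes a diacylglycerol kinase. Genes with a pattern like that of Pnpla2 included Ctps2 (0.899) and Bckdhb (0.889). Mgll was most like Acads (0.873), Hsdl2 (0.873) and Acy3 (0.867), of which Acads is the mitochondrial short-chain acyl-CoA dehydrogenase. G0s2 was most like Klhl25 (0.832), Nfil3 (0.830), a repressor of D-box genes, and Nrbf2 (0.80). Aqp7 was most like B430010I23Rik (0.877), Spaar (0.844) and Acvr1c (0.843), and Abhd5 was most like Pex13 (0.843), Stt3b (0.84) and Miga2 (0.84). Over the 54 libraries without those that stood apart, the correlations of the genes named with their members ran from 0.780 for Abhd5 and Pex13 to 0.932 for Pde3b and Dgkd, and those of Mgll fell to 0.825 for Acads, 0.826 for Hsdl2 and 0.804 for Acy3.

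Of 31 genes of the hormonal control of lipolysis (adrenergic and other receptors, adenylate cyclases, subunits of protein kinase A and insulin signalling), 13 passed between mid-feeding and mid-fasting under NRF (21.8% of all genes), 3 higher and 10 lower, with a median difference of -0.15 (log2) beside -0.01 over all genes. Under DRF 9 passed (11.5% of all genes), 2 higher and 7 lower, with a median of -0.16 beside 0.01. Without the libraries that stood apart the DRF count was 11, 4 higher and 7 lower. The 6 that passed in both regimens were all lower at mid-feeding (2.63% of all genes were). Adrb3, the β3-adrenergic receptor of adipocytes, averaged 136 CPM at mid-feeding and 584 CPM at mid-fasting under NRF, and 193 and 478 CPM under DRF. The lactate receptor Hcar1 averaged 37.9 and 144 CPM under NRF and 28.8 and 172 CPM under DRF. The ketone body and niacin receptor Hcar2 averaged 11.9 and 55.6 CPM under NRF and 10.9 and 53.3 CPM under DRF.

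Irs2, an adaptor of the insulin receptor, averaged 15.8 CPM at mid-feeding and 76.9 CPM at mid-fasting under NRF and 15.7 and 58.5 CPM under DRF. The remaining genes of this list that fell in both were Prkar2b, a regulatory subunit of protein kinase A, at -0.85 ± 0.20 under NRF and -0.97 ± 0.20 under DRF (log2, SE), and Pik3ca at -0.37 ± 0.08 and -0.34 ± 0.08. Leaving out the libraries that stood apart made these DRF differences smaller, at -0.66 for Prkar2b and -0.30 for Pik3ca. It moved Adrb3 from -1.41 to -1.14, Hcar1 from -2.59 to -2.36, Hcar2 from -2.22 to -1.97 and Irs2 from -1.83 to -1.69. Each of them still passed in limma. Of 18 genes of the lipid droplet coat and other partners, 5 passed under NRF, 3 higher and 2 lower, a share near the 21.8% of all genes, with a median of -0.14 beside -0.01. Under DRF 5 passed (11.5% of all genes), all lower, with a median of -0.40 beside 0.01, and 2 passed without the libraries that stood apart. Acsl1, which activates fatty acids to acyl-CoA, was the one that passed in both, at -1.0 ± 0.21 under NRF and -1.06 ± 0.21 under DRF. Its DRF difference without the libraries that stood apart was -0.89, which still passed. The difference between regimens did not pass for any of these 7 named genes (adjusted p of 0.283 to 0.941 in limma). They were named for passing in both regimens, which favours such a result, so nothing is concluded from it.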

How the data were processed

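RNA was sequenced by the authors from VAT of 56 mice. Per the labels, libraries were polyA-selected, and the submitters' processing notes name HISAT2 2.0.5, featureCounts 1.5.0-p3 and mm10. The table deposited by the authors gives 25939 genes a score in every library under the name TPM. By its values the deposited score is log2 of 1 plus reads over an effective library size, divided by exon length and rescaled in each library, so it is not linear TPM, which the design had assumed. Its steps gave back whole reads, with 100% of 1262086 entries (those up to 10000 reads) inside a tolerance of 0.02. Pnpla2, Lipe and Mgll lay above 10000 reads in every library. Their largest distances to a whole number were 0.04, 0.0316 and 0.0303, where Pnpla2 could be tested in 30 of 56 libraries. Exon lengths came from the GENCODE annotation on GRCm38 for 25016 genes, all members included, and for 901 were chosen to give whole numbers. CPM is recovered reads over the effective library size implied by the score. Exons of Lipe, Mgll and Abhd5 share 15.6%, 3.29% and 16.0% of their bases with antisense genes of 3.5, 4.55 and 0.158 mean CPM, which this unstranded kit cannot separate.

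Rhythms of 24 h were tested per regimen on the deposited score after MetaCycle (JTK_CYCLE and Lomb-Scargle on time-point means, combined by Fisher's method) (scipy 1.17.1, numpy 2.4.6 and pandas 2.3.3 on Python 3.11.15). Peak time and amplitude came from cosine fits to log2(CPM + 1) with Wald tests. All other tests used limma 3.58.1 in R 4.3.3 with an intensity trend on log2(CPM + 1) of 25937 genes. The 1 added before the log understates differences of low genes. Groups came from the labels, contrasts were two-sided, and p-values were adjusted by Benjamini-Hochberg over all genes, with a threshold of 0.05. Each program was checked on simulated data. Alternatives were other scalings, pseudocounts, filters and rhythm tests, the replicate number as a block, and leaving out ZT24, each replicate or the libraries that stood apart. The members and gene lists were chosen with earlier results of these data known. Genes named from the lists passed the feeding difference in both regimens, at most 6 per list, and the 3 genes most correlated with each member were named, except 1 that is not reported here. Shared replicate numbers did not pair mice: 28 pairs of same-numbered libraries had correlations of -0.303 to 0.338.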

Additional observations from a re-analysis of the deposited data

Results flagged for a closer look

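In 6 of 98 groups of 4 mice, 1 library lay far from the other 3 in a member's CPM by Dixon's test, which chance does in about 1 group in 20. They were Pnpla2 under NRF at ZT24 (2089.9 CPM in replicate 2, the highest), Pnpla2 under DRF at ZT0 (1951 CPM in replicate 4, the lowest), Mgll in that same library (954 CPM, the lowest), Abhd5 under NRF at ZT20 (188 CPM in replicate 4, the lowest), G0s2 under DRF at ZT20 (135 CPM in replicate 1, the lowest) and Pde3b under DRF at ZT20 (682 CPM in replicate 2, the highest). DRF replicate 4 at ZT0 is one of the libraries that stood apart, with an adipocyte marker sum of 17038 CPM.

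The rhythm by the clock differed between DRF and NRF in limma for Pnpla2 (adjusted p = 6.08e-05), Lipe (1.14e-12), Mgll (0.0277), G0s2 (1.34e-06), Pde3b (2.71e-16) and Aqp7 (1.85e-10). After alignment to feeding it differed for G0s2 (adjusted p = 0.000292). The mid-feeding difference changed between regimens by -1.55 for G0s2 and by -0.90 for Abhd5 on the log2 scale. That contrast cannot be told apart from a time-of-day difference shared by both regimens.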

How the results depend on the processing

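Leaving out each replicate number in turn (14 libraries at a time) gave 1 to 3 members with a rhythm under DRF (4 with all), 1 to 3 different at ZT4 (3), 2 to 3 at ZT12 (4), 0 to 2 at ZT16 (2), 3 to 4 at ZT20 (5), 2 to 5 at ZT24 (5), 3 to 5 between mid-feeding and mid-fasting under NRF (5), 0 to 2 in the feeding difference between regimens (2) and 0 to 1 in mean level (0). Without the libraries that stood apart, 5 members differed at ZT0 (1 with them), 1 in the feeding difference (2), 3 in mean level (0) and 3 in the rhythm aligned to feeding (1). On the deposited score 2 members passed at ZT12 (4) and 2 at ZT24 (5), and with a mean CPM of at least 1, 1 passed in mean level (0). Without the ZT24 libraries 3 members had a rhythm under DRF (4), with G0s2 lost. Under NRF 5 to 6 members had a rhythm with 1 replicate number left out (6 with all), and 5 without the ZT24 libraries. For these counts the cause was not tested. Directions that passed did not reverse under any alternative run. With the replicate number as a block (28 pairs, of which 8 correlated above 0.1 and 5 best with their own number), 5 members passed at ZT20 and 6 in the rhythm by the clock, as without it, and no member count changed. Among all genes, leaving out a replicate gave fewer calls for the feeding difference (148 to 1902, against 1941), the rhythm under DRF (592 to 1228, against 3295) and under NRF (3609 to 5102, against 6969), the amplitude (80 to 264, against 373), the alignment to feeding (1423 to 3245, against 3873) and mid-feeding (1555 to 2315 under DRF, against 2988, and 3018 to 5302 under NRF, against 5657). At single time points the lowest counts were 970 at ZT0 (2716), 2628 at ZT4 (5045), 2261 at ZT8 (4271), 2133 at ZT12 (4186), 1383 at ZT16 (2586), 1623 at ZT20 (3403) and 1069 at ZT24 (2939). Without ZT24, 1260 genes had a rhythm under DRF, and without the libraries apart 570 differed in amplitude. The members had at least 1715 reads in every library, so depth limits them little. Nothing in the labels says how mice were caged, so p-values measure the spread between these mice.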
